A study of Nothobranchius furzeri with 16 samples.

Results

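Transcripts of brain blood vessels and of the mural cells that wrap them were followed in whole brains of the turquoise killifish, Nothobranchius furzeri, after repeated injection of a proteasome inhibitor. This annual fish lives for months and serves as a model of vertebrate ageing. The genes were taken by symbol: SOX17, SOX7, SOX18, RGS5, ABCB4, CLDN5, CDH5, KDR, PECAM1 and PDGFRB, each with an optional A or B for the duplicate copies that fish carry. The rule found 10 of the 26739 gene rows of the deposited table: SOX17, SOX7, SOX18, KDR, CDH5, CLDN5B, ABCB4, PDGFRB, RGS5A and RGS5B. No row met the rule for PECAM1, which was not analysed here. None of the 10 rows shared its symbol with another row.

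The bortezomib group held 8 brains from fish injected with 500 µM bortezomib, a drug that inhibits the proteasome at its beta 5 subunit. The vehicle group held 8 brains from fish injected with 1% DMSO in salt solution, and the bortezomib solution held 1% DMSO as well. Fish of both groups were 12 to 14 weeks post hatch, came from the same hatch, were assigned at random and included males and females. They received 5 intraperitoneal injections of 10 µl per g of body weight on days 0, 6, 12, 18 and 24, in a treatment of 4 weeks. Each library came from the brain of a single fish. The sources used here give neither the strain nor the sex of each fish. Values are TPM, transcript abundances that are divided by transcript length and scaled to a total of 1000000 in each fish. The read depth behind them is unknown.

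Endothelial cells line the vessels of the brain and form the blood-brain barrier, with tight junctions between the cells and efflux transporters on the side that faces the blood. Pericytes sit on the capillary wall, depend on platelet-derived growth factor from the endothelium, and help to keep the barrier closed. SOX7, SOX17 and SOX18 form the SOXF group of transcription factors, which act partly redundantly in endothelial and arterial identity in mouse and zebrafish.

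Among these vessel genes, the SOXF factor SOX17 and the mural gene RGS5B were lower in the brains of bortezomib fish. SOX17 stood at 15.5 ± 4.35 TPM in bortezomib fish, against 32.0 ± 10.3 TPM in vehicle fish, and RGS5B at 7.89 ± 1.30 TPM in the bortezomib group and 12.7 ± 1.30 TPM in the vehicle group (SD, n = 8 each). Of the 10 rows, all of which were tested, 2 were called lower, 0 higher, and 8 did not pass. Over all 18529 rows tested, 4.86% were called, 1.25% lower and 3.61% higher (limma on log2(TPM + 1), a Benjamini-Hochberg adjusted p below 0.05). An unadjusted p below 0.05 was found for 5 of the 10 rows, lower in SOX17, CLDN5B, ABCB4 and RGS5B and higher in RGS5A. Among all rows 6.94% had such a p in the lower and 14.2% in the higher direction. The 10 genes were chosen with earlier results of these data known, so these shares do not test whether vessel genes respond more than others. The log2 fold changes of the 10 genes split evenly in sign, 5 below and 5 above 0, with a median of -0.04 beside a median of 0.03 over all rows tested. All 10 were detected, yet whole-brain RNA does not show which cells they came from. In bulk tissue, fewer cells of a type and less RNA per cell cannot be told apart.

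**Figure D1:**
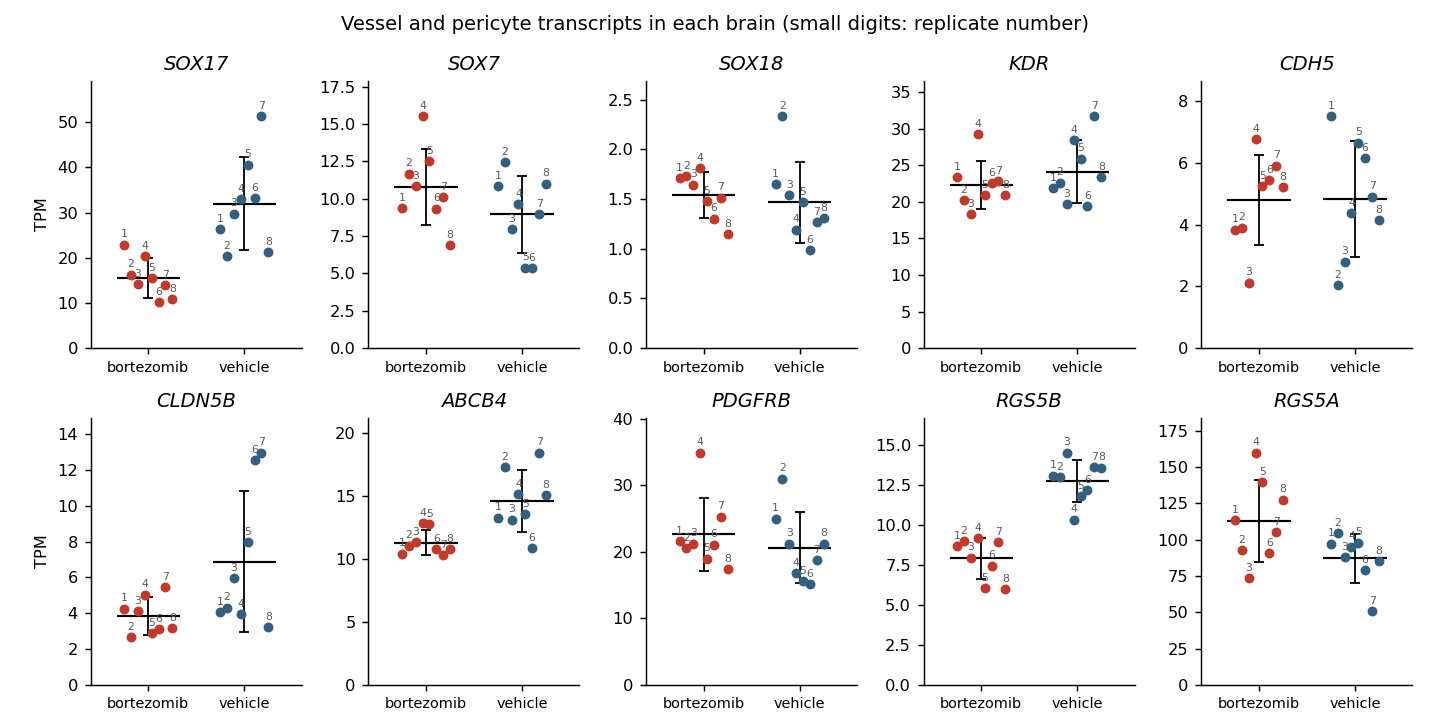
TPM of the 10 vessel and pericyte genes in each brain, with the 8 bortezomib fish left of the 8 vehicle fish, a bar at the mean and whiskers of 1 SD. RGS5B separates the groups fully, and SOX17 overlaps in bortezomib replicate 1 only, which at 22.9 TPM lies above vehicle replicates 2 and 8.

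SOX17 is a transcription factor of arterial endothelium and embryonic endoderm, and in mouse it is also present in the oligodendrocyte lineage. Bortezomib fish ran from 10.2 to 22.9 TPM with a median of 14.8 TPM, and vehicle fish from 20.4 to 51.4 TPM with a median of 31.4 TPM. Bortezomib replicate 1 at 22.9 TPM lay above vehicle replicates 2 and 8, at 20.4 and 21.2 TPM, and the other 7 bortezomib fish lay below every vehicle fish. The log2 fold change was -0.98 ± 0.19 (SE; 95% interval -1.38 to -0.58, adjusted p = 0.00696). The call held when any single fish was left out, with log2 fold changes of -1.06 to -0.88. Pituitary hormone transcripts were abundant in 4 brains, bortezomib replicates 6 and 7 and vehicle replicates 5 and 6, called pituitary-bearing here. The SOX17 call ended without these 4 (log2 fold change -0.79, adjusted p = 0.0820).

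The SOXF relatives of SOX17 gave values on the other side of 0, and neither passed the test. SOX7 ran from 6.91 to 15.5 TPM (median 10.4 TPM) in bortezomib fish and from 5.35 to 12.5 TPM (median 9.28 TPM) in vehicle fish, with a log2 fold change of 0.26 (95% interval -0.10 to 0.63, adjusted p = 0.396). SOX18 was the lowest of the 10 genes, at 1.54 ± 0.228 TPM in bortezomib fish, against 1.47 ± 0.410 TPM in vehicle fish. Its log2 fold change was 0.05 (95% interval -0.16 to 0.27, adjusted p = 0.796). The groups overlapped over most of their range in both genes.

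The difference between SOX17 and its relatives was tested on the difference of their log2(TPM + 1) values in each fish. Bortezomib fish had SOX17 to SOX7 ratios of TPM between 1.09 and 2.45, and vehicle fish between 1.64 and 7.54. The log2 difference was lower by 1.24 in bortezomib fish than in vehicle fish (difference -1.24 ± 0.29, SE; two-sided exact permutation p = 0.00109, adjusted p = 0.00190 over 7 pairs of genes). Between SOX17 and SOX18 the same difference was -1.04 ± 0.23 (two-sided exact permutation p = 0.000932, adjusted p = 0.00190). Both passed when any single fish was left out. Without the 4 pituitary-bearing brains the differences were -0.89 and -0.83 (exact permutation, adjusted p = 0.0227 for each). These p-values were adjusted over 7 pairs and that of SOX17 alone over all rows tested, so the 2 outcomes are not alike in threshold. Both pairs also contain the SOX17 values, whose own log2 fold change was -0.98, so they are not separate evidence that SOX17 was lower.

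The vessel receptor KDR, the adhesion molecule CDH5 and the junction protein CLDN5B did not pass. KDR, the vascular endothelial growth factor receptor of endothelial cells, stood at 22.3 ± 3.26 TPM in bortezomib fish, against 24.1 ± 4.31 TPM in vehicle fish (log2 fold change -0.10, 95% interval -0.33 to 0.12, adjusted p = 0.608). CDH5, the cadherin of endothelial contacts, stood at 4.81 ± 1.46 TPM in the bortezomib group and 4.83 ± 1.89 TPM in the vehicle group, with a log2 fold change of 0.02 whose 95% interval reached from -0.44 to 0.48. Its sign turned after upper-quartile scaling (-0.0051) and quantile normalization (-0.034).

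CLDN5B, a copy of the main claudin of brain endothelial tight junctions, varied most of the 10 genes among vehicle fish, with a coefficient of variation of 57.1%. Bortezomib fish ran from 2.65 to 5.47 TPM (median 3.64 TPM) and vehicle fish from 3.21 to 13.0 TPM (median 5.13 TPM). Vehicle replicates 5, 6 and 7, at 7.99, 12.5 and 13.0 TPM, stood above all other fish, and the other 5 vehicle fish lay between 3.21 and 5.95 TPM. The log2 fold change of -0.59 ± 0.24 had an unadjusted p of 0.0280 and an adjusted p of 0.176.

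ABCB4 belongs to the multidrug efflux transporters. In zebrafish it acts as a drug-exporting pump, while the mammalian gene of that name encodes a phospholipid transporter of the liver. Bortezomib fish ran from 10.3 to 12.9 TPM (median 10.9 TPM) and vehicle fish from 10.9 to 18.5 TPM (median 14.3 TPM), and 7 of the 8 vehicle fish lay above the highest bortezomib fish. Vehicle replicate 6, at 10.9 TPM, was the fish inside the bortezomib range. The log2 fold change was -0.33 ± 0.10 (95% interval -0.53 to -0.13), with an unadjusted p of 0.00282 and an adjusted p of 0.0544, so the gene missed the threshold. It passed without vehicle replicate 6 (log2 fold change -0.39, adjusted p = 0.0186) and in 4 of 13 other alternatives (adjusted p = 0.0223 to 0.0464). The lowest of these 4 used a principal component of within-group deviations, which leaves the fold change unchanged and takes up spread between fish. It did not pass in 15 of 16 fits with 1 fish left out (adjusted p up to 0.106) or in 9 of those 13 alternatives (up to 0.117). The response of ABCB4 did not differ from that of CLDN5B or of CDH5 past the threshold (differences 0.26 ± 0.29 and -0.35 ± 0.27, SE; two-sided exact permutation p = 0.403 and 0.208, adjusted p = 0.403 and 0.291).

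**Figure D2:**
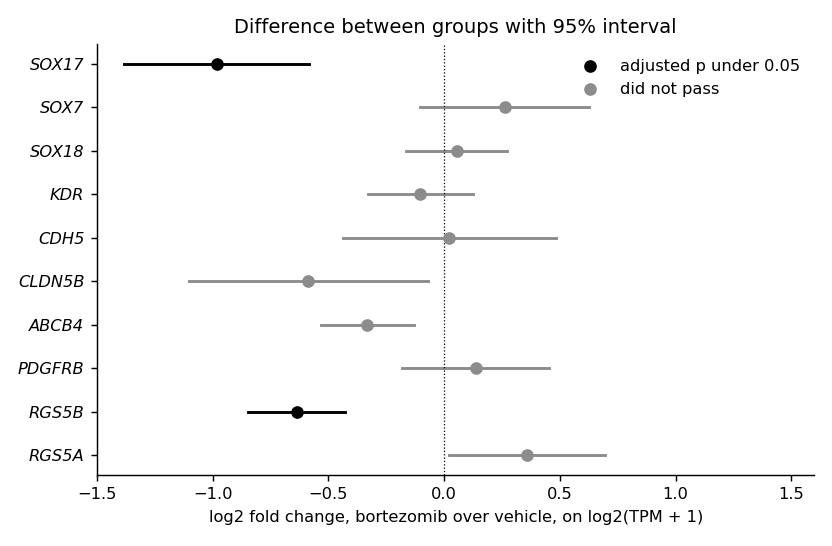
Log2 fold change of each gene on the log2(TPM + 1) scale, bortezomib over vehicle, with its 95% interval; black points passed at an adjusted p under 0.05. SOX17 at -0.98 and RGS5B at -0.64 passed, and the intervals of ABCB4, CLDN5B and RGS5A exclude 0 without passing the adjusted test.

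Of the mural genes, RGS5B fell while its duplicate RGS5A had a positive log2 fold change that did not pass. RGS5 proteins speed the hydrolysis of GTP by G alpha subunits, and RGS5 marks pericytes in mammals and fish. RGS5B ran from 5.99 to 9.19 TPM (median 8.31 TPM) in bortezomib fish and from 10.3 to 14.5 TPM (median 13.0 TPM) in vehicle fish. Every bortezomib fish lay below every vehicle fish, which held for 0.221% of all rows tested; the reverse held for 1.08% of rows and for 0 of the 10 genes. The log2 fold change was -0.64 ± 0.10 (SE; 95% interval -0.85 to -0.43, adjusted p = 0.00132). The call held when any single fish was left out (-0.68 to -0.59) and without the 4 pituitary-bearing brains (-0.68, adjusted p = 0.0183).

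RGS5A was the most abundant of the 10 genes, at 113 ± 28.5 TPM in bortezomib fish, against 87.2 ± 16.9 TPM in vehicle fish. Bortezomib fish ran from 73.6 to 160 TPM (median 110 TPM) and vehicle fish from 50.5 to 104 TPM (median 91.5 TPM), and 5 bortezomib fish lay above the highest vehicle fish. The log2 fold change was 0.36 ± 0.16 (95% interval 0.02 to 0.70, unadjusted p = 0.0392, adjusted p = 0.208). Bortezomib replicates 2, 3 and 6 lay within the vehicle range.

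RGS5B and RGS5A differed in response. The ratio of RGS5B to RGS5A TPM was 0.0431 to 0.108 in bortezomib fish, with a median of 0.0793, and 0.108 to 0.269 in vehicle fish, with a median of 0.144. The log2 difference between the copies changed by -0.99 ± 0.21 (SE) in bortezomib against vehicle fish (two-sided exact permutation p = 0.000311, adjusted p = 0.00109 over 7 pairs; 12870 splits allow no p below 0.000155). It passed when any single fish was left out (-1.08 to -0.88) and without the 4 pituitary-bearing brains (-1.11, adjusted p = 0.0152).

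PDGFRB, the receptor by which pericytes answer platelet-derived growth factor, stood at 22.6 ± 5.46 TPM in bortezomib fish, against 20.6 ± 5.35 TPM in vehicle fish. The log2 fold change was 0.14 (95% interval -0.18 to 0.45, adjusted p = 0.629), and it was -0.0024 without the 4 pituitary-bearing brains. RGS5B differed in response from PDGFRB (difference -0.77 ± 0.13, SE; two-sided exact permutation p = 0.000311, adjusted p = 0.00109). RGS5A did not differ from it past the threshold (0.22 ± 0.19, two-sided exact permutation p = 0.267, adjusted p = 0.311).

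**Figure D3:**
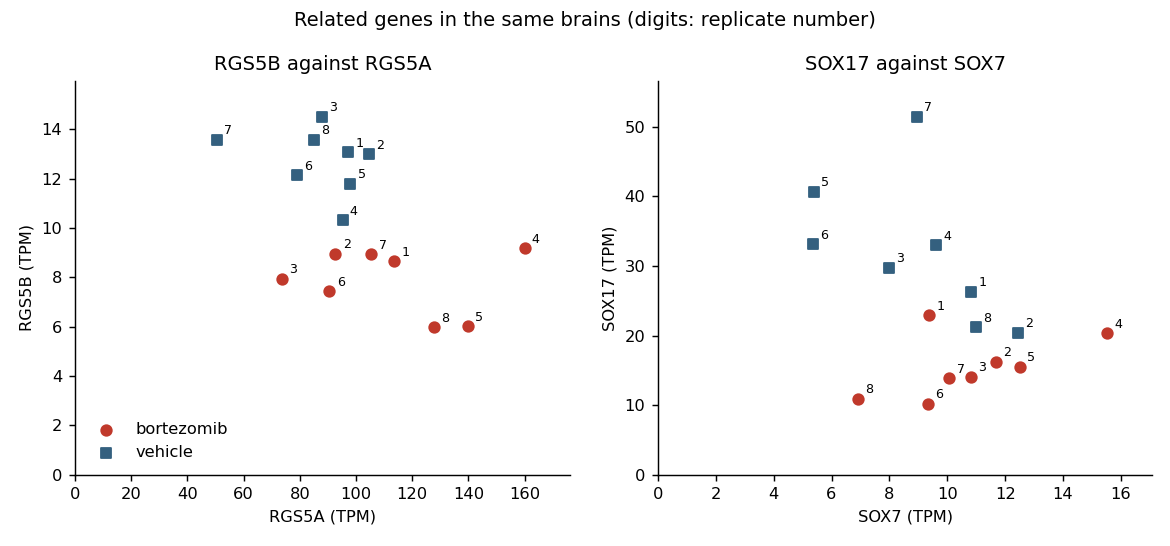
TPM of RGS5B against RGS5A and of SOX17 against SOX7 in the 8 bortezomib and 8 vehicle brains, with replicate numbers. Bortezomib fish lie at 9.19 TPM of RGS5B or below over the whole range of RGS5A, and vehicle replicates 5 and 6 join high SOX17 with the lowest SOX7.

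The order of the mean levels was not the same in both groups. In bortezomib fish the order was RGS5A, PDGFRB, KDR, SOX17, ABCB4, SOX7, RGS5B, CDH5, CLDN5B and SOX18. Among neighbours in that order the ranges separated for RGS5A and PDGFRB and for CLDN5B and SOX18, and overlapped in the other 7 pairs. PDGFRB was above KDR in 4 of 8 bortezomib fish. In vehicle fish SOX17 came second, above KDR in 6 of 8 fish, and RGS5B lay above SOX7 in 8 of 8 fish, while in bortezomib fish SOX7 lay above RGS5B in 8 of 8. These are levels per length in TPM, and the differences between genes were not tested.

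With the deviations of both groups pooled, most pairs of the 10 genes were only weakly correlated between fish. Over the 45 pairs, Pearson's r of log2(TPM + 1) with group means removed had a median of 0.20 and ran from -0.45 to 0.77 (n = 16 fish). By r, 2 pairs passed the adjustment over the 45 pairs, and by Spearman's rho 0 pairs did, with the smallest adjusted p at 0.0841. PDGFRB was correlated with SOX18 (r = 0.77, permutation p = 0.000570, adjusted p = 0.02565; rho = 0.72, permutation p = 0.00330). The other pair was PDGFRB with SOX7 (r = 0.77, permutation p = 0.00128, adjusted p = 0.0288; rho = 0.64, permutation p = 0.0135). Without the 2 fish farthest from the median of the SOX gene these were 0.60 and 0.70, and within groups they were 0.62 and 0.69 in bortezomib fish and 0.87 and 0.82 in vehicle fish. By rho, PDGFRB with RGS5B shared the smallest adjusted p of 0.0841 with PDGFRB and SOX18 (rho = 0.67, permutation p = 0.00374). Its r was 0.59 (permutation p = 0.0140, adjusted p = 0.120), at 0.71 within bortezomib fish and 0.50 within vehicle fish.

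Pooled over the groups, the r of SOX17 with its SOXF relatives was near 0, while the values within the groups had opposite signs. Its r with SOX7 was -0.13 (permutation p = 0.643, adjusted p = 0.772; rho = -0.17, permutation p = 0.538), at 0.57 within bortezomib fish and -0.60 within vehicle fish. With SOX18 it was -0.06 (permutation p = 0.839, adjusted p = 0.899; rho = 0.012, permutation p = 0.970), at 0.85 within bortezomib fish and -0.53 within vehicle fish. Other pairs were also positive in bortezomib and negative in vehicle fish, such as SOX17 with PDGFRB (0.49 and -0.70) and CLDN5B with PDGFRB (0.74 and -0.56). Pairs such as PDGFRB with SOX18 and with SOX7 kept their sign. The differences between within-group values were not tested. With CLDN5B the r of SOX17 was 0.64 (permutation p = 0.0112, adjusted p = 0.120; rho = 0.61, permutation p = 0.0192), and 0.53 without the 2 fish farthest from the SOX17 median. Within bortezomib fish it was 0.38 and within vehicle fish 0.78.

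The rows most like SOX17 between fish of a group were named as the 5 highest r over 16 fish among 10461 rows with their own symbol and a mean of at least 5 TPM, so their r is a description with no test. SLC25A25A, a mitochondrial carrier of ATP and phosphate, had r = 0.87 and GADD45BA, a growth arrest gene, r = 0.84. GRASP, a scaffold protein of receptors, had r = 0.82, CSRNP1A, a nuclear protein, r = 0.79, and IER2 (2 OF 2), an immediate early gene, r = 0.79. Without the 2 fish farthest from the SOX17 median these were 0.80, 0.78, 0.77, 0.76 and 0.64. SLC25A25A stood at 4.16 ± 0.565 TPM in bortezomib fish, against 7.43 ± 0.955 TPM in vehicle fish, and was itself called lower (log2 fold change -0.71, adjusted p = 0.000235), as were GADD45BA, GRASP and IER2 (2 OF 2) at -1.07, -0.92 and -1.67. CSRNP1A was at -0.55 (adjusted p = 0.131).

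Of the 5 rows most like RGS5B, chosen in the same way, 0 were called. TEKT1, a tektin of cilia, had r = 0.84, SMOX, a spermine oxidase, r = 0.78, and AP5B1, an adaptor subunit, r = 0.77. CCRN4L (2 OF 2), whose product is nocturnin, had r = 0.77 and EHMT1 (2 OF 3), a histone methyltransferase, r = 0.77. Without the 2 fish farthest from the RGS5B median these r were 0.76, 0.63, 0.67, 0.61 and 0.77. The adjusted p of the 5 rows ran from 0.266 for AP5B1 to 0.991 for SMOX.

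Other genes of endothelial cells, of the barrier and of mural cells were called in 3.33%, 2.56% and 0% of tested rows. Over all rows tested 4.86% were called, 1.25% lower and 3.61% higher. In the endothelial list 1 of 30 tested rows was lower and 0 higher, with a median log2 fold change of 0.03, and its summed level was 355 to 505 TPM in bortezomib fish and 380 to 459 TPM in vehicle fish. The lower row was a row of PROX1B, a lymphatic endothelial factor that neural cells also express (46.4 ± 6.06 TPM in bortezomib and 58.2 ± 5.38 TPM in vehicle fish, log2 fold change -0.33, adjusted p = 0.0342). Another row of that symbol was at 0.07, and with both summed the value was -0.17 (adjusted p = 0.246). The call ended without any of 9 fish (adjusted p of up to 0.0704), bortezomib replicates 1, 3, 4 and 6 and vehicle replicates 3, 4, 5, 7 and 8. KDRL, the other fish receptor of the KDR type, stood at 20.4 ± 5.32 TPM in bortezomib fish, against 18.8 ± 3.22 TPM in vehicle fish (adjusted p = 0.776); it was named for its role, with its values known.

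In the blood-brain barrier list 1 of 39 tested rows was lower and 0 higher, with a median of -0.11 and 69.2% of rows below 0, beside 43.4% of all rows tested. The lower row was FOXQ1B, a forkhead factor, at 0.532 to 0.911 TPM in bortezomib fish and 1.01 to 1.59 TPM in vehicle fish. It reached the minimum of 1 TPM in 8 fish through the 8 vehicle fish alone, so it had to differ to be tested. SLC2A1B, a glucose transporter of the barrier, was also named for its role. It stood at 87.2 ± 15.1 TPM in the bortezomib group and 99.0 ± 12.2 TPM in the vehicle group (adjusted p = 0.306). Of the tested barrier rows, 27 had a log2 fold change below 0 and 12 above it. Those above 0 included TFRC (2 OF 2), MARVELD2A and LSR, at 0.26, 0.56 and 0.47 (limma, adjusted p = 0.106, 0.125 and 0.193). These 3 were named with their values known. In the list of other mural genes 0 of 25 tested rows were called by limma, and 4 were under an unadjusted p of 0.05. Among all rows tested, 6.94% had such a p in the lower and 14.2% in the higher direction. The mural rows had a median log2 fold change of -0.05, and 60% of them were below 0. Their summed level was 304 to 422 TPM (median 337 TPM) in bortezomib fish and 350 to 415 TPM (median 404 TPM) in vehicle fish. The sums were not tested. The 3 smallest p belonged to ANPEPA, an aminopeptidase, ITGA7, a laminin-binding integrin, and NOTCH3, a mural Notch receptor. Their log2 fold changes were -0.41, 0.38 and -0.24 (adjusted p = 0.0875, 0.117 and 0.163), and ANPEPA passed under the 3 other scalings of the values.

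Among vessel growth signals 4 of 46 tested rows were lower and 0 higher, with a median log2 fold change of -0.16 and 73.9% of rows below 0. The share called lower was 8.70%, beside 1.25% of all rows tested. KLF2, a factor that blood flow induces in endothelium, ran from 20.8 to 40.3 TPM (median 30.7 TPM) in bortezomib fish and from 40.5 to 65.5 TPM (median 49.9 TPM) in vehicle fish, so the groups did not overlap. Its log2 fold change was -0.74 ± 0.13 (adjusted p = 0.00434), and the call held when any single fish was left out and without the 4 pituitary-bearing brains (-0.66, adjusted p = 0.0458). A row of SMAD7, an inhibitor of TGF-beta and BMP signals, fell to 2.80 ± 0.262 TPM in bortezomib fish, against 3.71 ± 0.384 TPM in vehicle fish (log2 fold change -0.31, adjusted p = 0.0308), and here too the groups did not overlap. Among all rows tested, every bortezomib fish lay below every vehicle fish in 0.221%. ID3, a target of BMP signals, and a row of HEY1 (1 OF 2), a Notch target, fell by 0.24 and 0.37 on the log2 scale (adjusted p = 0.0363 and 0.0289).

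Those last calls were less stable. Leaving out 1 fish ended the call of SMAD7 for bortezomib replicates 4 and 6 and vehicle replicate 7 (highest adjusted p 0.0670), and that of HEY1 (1 OF 2) for bortezomib replicates 4, 5 and 6 and vehicle replicates 3 and 8 (up to 0.0663). For ID3 it did so for bortezomib replicates 2, 5, 6 and 7 and for vehicle replicates 1, 2, 3, 5, 7 and 8 (highest 0.0754), and upper-quartile scaling ended it as well (0.0623). Without the 4 pituitary-bearing brains 1 of the 4 calls was left, that of KLF2. The log2 fold changes of SMAD7, HEY1 (1 OF 2) and ID3 were then -0.32, -0.42 and -0.20 (limma, adjusted p = 0.111, 0.0685 and 0.180). Over all rows the number of calls was 337 without these brains and 901 with them. SMAD7 and HEY1 (1 OF 2) share their symbols with other rows, which were not called. The other SMAD7 row was at -0.27 (adjusted p = 0.109). The other HEY1 (1 OF 2) rows were at 0.08 and -0.48 (adjusted p = 0.896 and 0.0793). How reads were divided between such rows was not tested. Of the ligands, VEGFAB, for KDR, was at -0.10 (adjusted p = 0.564), and the PDGFB rows, for PDGFRB, were at 0.09 and -0.39 (adjusted p = 0.522 and 0.285); these were named for their roles.

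The wider families of the members were called at shares near that of all rows tested, 4.86%. These shares were 3.03% for other ABC transporters, 5% for other RGS genes and 5.88% for other SOX genes. Rows with a log2 fold change below 0 made up 39.4%, 60% and 76.5% of these 3 lists, beside 43.4% of all rows tested. The median of the other SOX genes was -0.12. Among other ABC transporters 1 of 33 tested rows was called, ABCF2, a protein of ribosome function, which was higher (log2 fold change 0.29, adjusted p = 0.0238). This call was lost with median-of-ratios scaling (adjusted p = 0.0796), upper-quartile scaling (0.107) and quantile normalization (0.0698), and without bortezomib replicate 4 or 6 (0.0529 and 0.0542). Among other RGS genes 1 of 20 was called, RGS20, which was higher at 5.86 to 12.0 TPM in bortezomib fish and 4.06 to 6.72 TPM in vehicle fish (log2 fold change 0.58, adjusted p = 0.0181). Among other SOX genes 1 of 17 was called, the glial and cartilage factor SOX9A, at 12.2 ± 2.37 TPM in bortezomib fish, against 17.7 ± 3.04 TPM in vehicle fish (log2 fold change -0.51, adjusted p = 0.0308). The SOX9A call was lost when any of bortezomib replicates 4, 6 and 7 and vehicle replicates 2, 7 and 8 was left out (highest adjusted p 0.0670). The calls of ABCF2, RGS20 and SOX9A ended without the 4 pituitary-bearing brains (adjusted p = 0.135, 0.0702 and 0.145). Their log2 fold changes were then 0.26, 0.62 and -0.48.

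**Figure D4:**
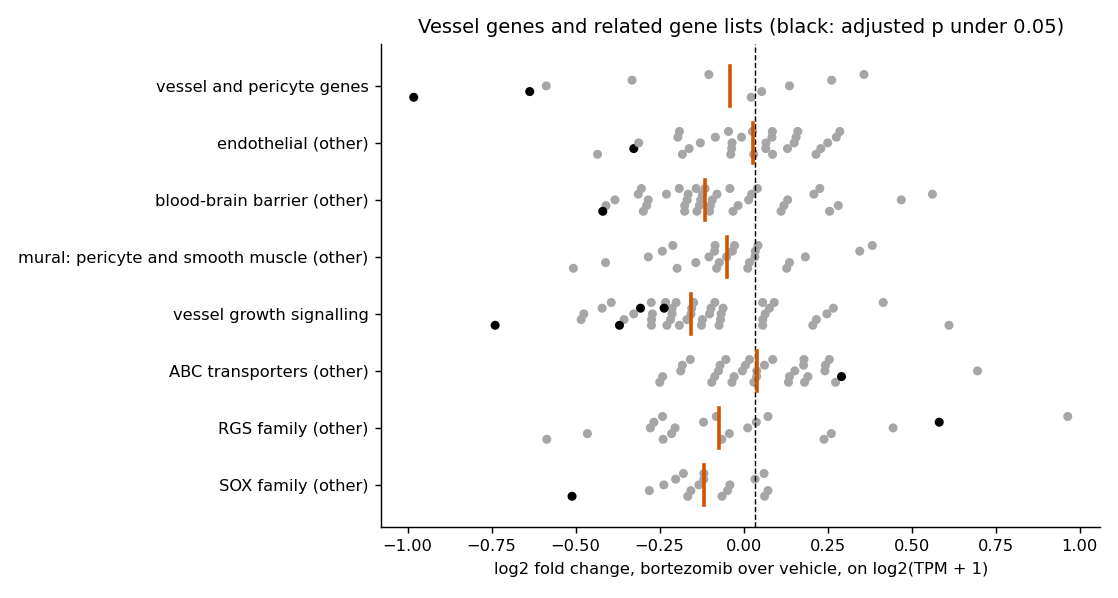
Log2 fold change of each tested row in the 10 vessel and pericyte genes and in 7 related lists, on the log2(TPM + 1) scale, bortezomib over vehicle. Black points passed at an adjusted p under 0.05, orange bars are list medians, and the dashed line is the median of 0.03 over all rows tested.

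Markers of other cell types and signals were summed in each fish. Summed neuron markers were 3770 to 4349 TPM in bortezomib fish and 2518 to 3544 TPM in vehicle fish (1 of 8 rows called, higher). Summed oligodendrocyte markers were 5302 to 10161 TPM in bortezomib fish and 7098 to 13461 TPM in vehicle fish. Of these 9 rows 1 was called, higher, while 8 had a log2 fold change below 0 (median -0.24) and 5 an unadjusted p below 0.05. Red blood cell markers were 172 to 284 TPM in bortezomib fish (median 203 TPM) and 183 to 283 TPM in vehicle fish (median 258 TPM). Of these 10 rows 0 were called by limma and 5 had an unadjusted p below 0.05, while 8 had a log2 fold change below 0 (median -0.18). Their haemoglobin row HBAA1 was near 0, at 0.222 ± 0.204 TPM in the bortezomib group and 0.152 ± 0.142 TPM in the vehicle group. Meningeal and fibroblast markers were 69.8 to 133 TPM in bortezomib fish (median 83.0 TPM) and 76.7 to 110 TPM in vehicle fish (median 96.7 TPM). Of these 9 rows 0 were called by limma and 4 had an unadjusted p below 0.05, while 8 had a log2 fold change below 0 (median -0.18). Among all rows tested, 6.94% had such a p in the lower and 14.2% in the higher direction. No row of these 4 lists was at 0 in all fish. Immediate early genes were 287 to 457 TPM in bortezomib fish and 553 to 1103 TPM in vehicle fish. Of these, 12 of 16 were called, all lower, a share of 75% beside 1.25% of all rows tested. Radial glia markers were 2289 to 3744 TPM in bortezomib and 2174 to 3034 TPM in vehicle fish (1 of 6 called, lower, with 5 above 0). For microglia and myeloid markers the sums were 395 to 793 TPM and 356 to 749 TPM (0 of 17 called by limma). For choroid plexus and ependyma they were 98.2 to 116 TPM and 97.4 to 145 TPM (0 of 5 called by limma).

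SOX17 and CLDN5B were both highest in vehicle replicates 5, 6 and 7. Of the 8 rows of the glucocorticoid response list, 3 (37.5%) were called lower, beside 1.25% of all rows tested. The median log2 fold change of the 8 was -0.42. DUSP1 was among the names of both this list and that of immediate early genes. Vehicle replicates 5, 6 and 7 had the highest sums of this list, at 1132, 1204 and 1063 TPM, while the other vehicle fish lay between 538 and 736 TPM and the bortezomib fish between 469 and 748 TPM. Vehicle replicates 5 and 6 also carried pituitary transcripts, with sums of 6099 and 2145 TPM, as did bortezomib replicates 6 and 7 with 4241 and 3719 TPM; the other 12 fish had at most 21.5 TPM. The part of these shifts in the vessel results was not tested. In RGS5B the highest fish were vehicle replicates 3, 7 and 8.

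Among all rows tested, 669 were called higher and 232 lower, and this balance moved with the scaling. Median-of-ratios scaling gave 534 higher and 385 lower rows, the upper quartile 500 and 397, and quantile normalization 549 and 563. These scalings moved the median of all genes to between -0.014 and 0.0092 and left SOX17 at -1.02 to -1.01 and RGS5B at -0.69 to -0.66.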

How the data were processed

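The authors deposited 1 table of TPM values for 26739 rows in 16 fish, and each column summed to 1000000. Per the submitters' processing notes, bcl2fastq 2.20.0.422 and STAR were used. The sources used here do not give the read counter, genome build or annotation. Gene symbols are those in the file; its identifiers had 0 matches in RefSeq's table of killifish genes, and coordinates were therefore left out. Read depth is unknown, so no counting intervals are given.

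Rows that reached 1 TPM in 8 or more fish were kept (18529 kept, 8210 left out). Their log2(TPM + 1) values were tested without rescaling by limma 3.58.1 (R 4.3.3; variance trend on). Fold changes are on that scale and understate those of low genes. Two-sided p-values were adjusted over all rows tested by the Benjamini-Hochberg method, at a threshold of 0.05. Pairs of genes were compared by exact permutation of fish, and correlations by 100000 permutations within groups. The groups share replicate numbers, and nothing in the labels says that these pair fish. P-values measure the spread between fish of 1 hatch.

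The bortezomib comparison was also tested on simulated data of 18529 genes, 200 of them changed. It called 34% of those shifted by 0.5 and 88% of those shifted by 1 on the log2 scale, and made 9 false calls. The simulated noise was independent between genes, without the variation that genes of a real brain share. These figures therefore need not hold for the real fish.

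The members and lists were chosen with earlier results of these data known. The 7 pairs were drawn from these members, so their p-values are not independent of the results for single genes. The text names every member, the called rows of each list (or the 3 with the smallest p where none or more than 6 were called), and the 5 rows most like each called member. Duplicate suffixes were allowed in matching. Alternatives were other scalings, pseudocounts and filters, a replicate block, a hidden component, fish weights, a robust variance, summed rows of 1 symbol, and leaving out each fish. The hidden (principal) component came from deviations within groups, so it left the fold changes unchanged and took up spread between fish. Leaving out fish whose summed pituitary markers were over 10 times the median was added with the data seen. Tables and plots were made in Python 3.11.15 (numpy 2.4.6, pandas 2.3.3, scipy 1.17.1, matplotlib 3.10.9).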

Additional observations from a re-analysis of the deposited data

Results flagged for a closer look

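Within the groups of 8 fish, 3 single values stood apart from their own group by Dixon's test, among 20 groups tested; chance flags about 1 in 20 groups. Bortezomib replicate 4 was highest in KDR, at 29.3 TPM with the next bortezomib fish at 23.4 TPM. The same fish was highest in PDGFRB, at 34.9 TPM with the next at 25.3 TPM, and without it the log2 fold change of PDGFRB was 0.05. Vehicle replicate 7 was lowest in RGS5A, at 50.5 TPM with the next vehicle fish at 79.0 TPM, and without it the log2 fold change of RGS5A was 0.25 (adjusted p = 0.355). None of these 3 genes was called with or without the fish named.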

How the results depend on the processing

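SOX17 was lower in all 29 alternatives and lost its call in 1 of them, without the 4 pituitary-bearing brains (-0.79, adjusted p = 0.0820). RGS5B kept its call in all 29 (-0.70 to -0.59). ABCB4 passed after median-of-ratios scaling (-0.36), with a minimum of 5 TPM (-0.33), with a principal component covariate (-0.33) and with fish weights (-0.31). It did not pass in the 9 others of these 13 alternatives, such as the replicate block (adjusted p = 0.117). Leaving out 1 fish gave -0.39 to -0.28. CDH5 turned sign after upper-quartile scaling (-0.0051) and quantile normalization (-0.034) and ran from -0.10 to 0.14 with 1 fish left out. PDGFRB was at -0.0024 without the 4 pituitary-bearing brains. The cause of these shifts was not tested. The 7 pair differences kept their side of the threshold and their sign in the 18 alternatives run for them.

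The number of calls, 901, ran from 492 to 1110 with 1 fish left out, falling to 535, 492 and 586 without bortezomib replicate 4 or 6 and vehicle replicate 7. It was 2434 with the principal component, 1892 with fish weights and 337 without those 4 brains. With the replicate number as a block it was 491, where SOX17 and RGS5B passed (adjusted p = 0.0222 and 0.0151). Same-numbered fish deviated together in 3 of 8 pairs (r above 0.1; range -0.24 to 0.41), and 1 of 16 fish correlated best with its own number, so the numbers were not taken to pair fish.

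List counts, most of them 1, moved easily. Endothelial calls (1) were 0 with the block, with rows summed and without those 4 brains, and 0 to 1 with 1 fish left out. Barrier calls (1) were 0 after median-of-ratios and upper-quartile scaling, with the minimum of 5 TPM and without those 4 brains, 2 after quantile normalization, with no filter and with the principal component, and 3 with fish weights (0 to 2 with 1 fish left out). FOXQ1B was called wherever it was tested, in 8 fits with 1 fish left out and in 9 other alternatives. In the rest the filter removed it, so those counts of 0 do not show a lost call of this row. Mural calls (0) were 1 under each of the 3 scalings and with the principal component, and 2 with fish weights. Growth signal calls (4) were 2 with the block, 8 with the principal component and 1 without those 4 brains (1 to 5 with 1 fish left out). ABC transporter calls (1) were 0 under the 3 scalings and without those 4 brains, 2 with no filter, 3 with the principal component and 4 with fish weights (0 to 2). RGS calls (1) were 0 with the block and without those 4 brains, and 2 with the principal component and with fish weights. SOX calls (1) were 0 with the block and without those 4 brains (0 to 1). Depth is unknown, so whether it limits the low genes SOX18 and FOXQ1B cannot be told from these values.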
